A study of Mus musculus with 2 samples.

Results

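The distal miRNA cluster of the imprinted Dlk1-Dio3 domain was examined in exosomes, small membrane vesicles shed by cultured cells. Its members were the miRNA entries of the deposited table that start within a 60 kb window of mouse chromosome 12 (mm10), whatever their count, and 52 of the 1214 miRNA entries met this rule. The window opens 9.07 kb before the first member and closes 12.1 kb after the last. They came from 34 hairpins and spanned 38.9 kb, from miR-379-5p, which starts at 109709065, to miR-3072-3p, which ends at 109747949. Exosomes of C57BL/6 mesenchymal stem cells (MSCs), stromal cells able to give rise to bone, cartilage or fat, were compared with exosomes of NIH3T3 cells, an immortalised fibroblast line of NIH Swiss origin used as the control. Both cultures grew for 72 hours in αMEM with 5% fetal bovine serum, and neither carried a stated treatment or genetic change. The study asked which miRNAs are enriched in MSC exosomes. Each group held 1 library, so no difference has a replicate check, no test was made, and values in brackets are 95% intervals that cover counting error only. With bulk samples of this kind, fewer vesicles from cells that carry a miRNA and less of it per vesicle cannot be told apart.

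The Dlk1-Dio3 domain is expressed by parental origin. The paternal copy expresses the protein-coding genes Dlk1, Rtl1 and Dio3, and the maternal copy expresses the noncoding RNAs Meg3, Rian and Mirg together with small nucleolar RNAs and miRNAs. The distal miRNAs, often called the miR-379/miR-410 cluster, are found in placental mammals, are known for high expression in the embryo, placenta and brain, and are needed in mice for the metabolic switch at birth. In mouse induced pluripotent stem cells, silencing of the maternal transcripts is known to mark lines with poor developmental potential.

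The MSC library held 1028186 miRNA counts and the NIH3T3 library 431007, so that a single count was worth more of the total in NIH3T3 exosomes. All 6 mesenchymal miRNAs on a marker list were present in both libraries, with a summed level of 234678 CPM (counts per 1000000 miRNA counts) in MSC and 179691 CPM in NIH3T3 exosomes. Most of either sum was miR-199a-3p (167562 and 154264 CPM), while miR-143-3p (37575 and 8561 CPM) and miR-145a-5p (17693 and 5856 CPM) were more than 2-fold higher in MSC exosomes. The neural list, of interest because the cluster is active in brain, had 4 of 5 markers in the table, summing to 1709 CPM and 1195 CPM. The defining neuronal marker miR-124-3p was not among the entries, whereas miR-124-5p had 31 counts from MSC and 8 from NIH3T3 exosomes. Within the neural list miR-9-5p (20.4 and 747 CPM) was lower in MSC exosomes, as was the cluster. The other listed markers were higher there, with miR-128-3p at 1280 and 364 CPM, miR-129-5p at 302 and 74.2 CPM and miR-219a-5p at 106 and 9.28 CPM. The blood cell list (5 of 5 markers) summed to 275 and 462 CPM, the endothelial list (2 of 2) to 370 and 768 CPM, the epithelial list (2 of 5) to 49.6 and 46.4 CPM and the pluripotency list (2 of 6) to 46.7 and 18.6 CPM. The liver miRNA miR-122-5p stood at 9491 and 8088 CPM, and the skeletal muscle list (3 of 4) at 7290 and 510 CPM. The part of these other sources in the cluster's counts was not tested, nor was that of the serum in the medium.

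RefSeq mature sequences (GRCm38.p6, the mm10 assembly) were found by name for 48 of the 52 members, all at the position given in the table, and miR-376c-3p, miR-487b-3p, miR-539-3p and miR-485-5p are given by name only. The sequences are printed 5′ to 3′ in lower case, with the seed, bases 2 to 8, in capitals, since the seed largely sets which mRNAs a miRNA binds. The first group holds the 10 members with the lowest ratio of MSC to NIH3T3 exosomes, all on the plus strand.
miR-541-5p: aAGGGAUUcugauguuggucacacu
miR-376a-3p: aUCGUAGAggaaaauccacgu
miR-382-5p: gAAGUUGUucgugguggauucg
miR-666-3p: gGCUGCAGcgugaucgccugcu
miR-379-5p: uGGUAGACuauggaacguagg
miR-300-3p: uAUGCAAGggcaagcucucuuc
miR-409-3p: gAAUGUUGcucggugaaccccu
miR-154-5p: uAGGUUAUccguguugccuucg
miR-134-5p: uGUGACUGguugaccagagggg
miR-411-5p: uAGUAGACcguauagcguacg

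The second group holds the 5 members that were at least 2-fold higher in MSC exosomes, which include the opposite arm of the miR-134 hairpin.
miR-453: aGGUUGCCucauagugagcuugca
miR-134-3p: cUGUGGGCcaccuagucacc
miR-679-3p: aGCAAGGUccuccucacaguag
miR-758-3p: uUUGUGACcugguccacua
miR-3072-5p: aGGGACCCcgagggagggcagg

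As a whole the cluster was carried mainly by NIH3T3 exosomes. Its 52 members summed to 1368 counts in the MSC library, 0.133% of miRNA counts (0.126 to 0.140, Wilson), and to 7030 counts in the NIH3T3 library, 1.63% (1.59 to 1.67). On the scale of the deposited normalized values the sum was 14.4-fold higher in NIH3T3 exosomes, a log2 ratio of MSC over NIH3T3 of -3.85 (-3.94 to -3.77). By member, 31 were 2-fold or more lower in MSC exosomes, 5 were higher and 16 were within these bounds. Over all 1214 miRNA entries, 25.5% were lower and 23.8% were higher by the same rule. The median log2 ratio was -1.59 over the members and -0.04 over all miRNA entries. An interval wholly below a 2-fold difference was found for 18 members, against 11% of all entries, and an interval wholly above it for 0 members, against 9.06% of all entries. No member was at 0 counts in either library.

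Most members had few counts, which sets how much can be said of each. Counts ran from 2 to 190 in the MSC library, with a median of 13.5, and from 1 to 2930 in the NIH3T3 library, with a median of 15.5. The table listed an entry where a library reached 10 counts. That was met in both libraries by 22 members, in the NIH3T3 library alone by 15 and in the MSC library alone by 15. A member listed through 1 library alone was bound to be low in the other, so the counts of members called are a description of the listed entries. RefSeq placed 73 mature miRNAs in the window, and 25 of these names had no entry and were not analysed here. At 100 CPM the members that passed numbered 13, of which 10 passed through NIH3T3 exosomes alone, 1 through MSC exosomes alone and 2 through both.

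**Figure D1:**
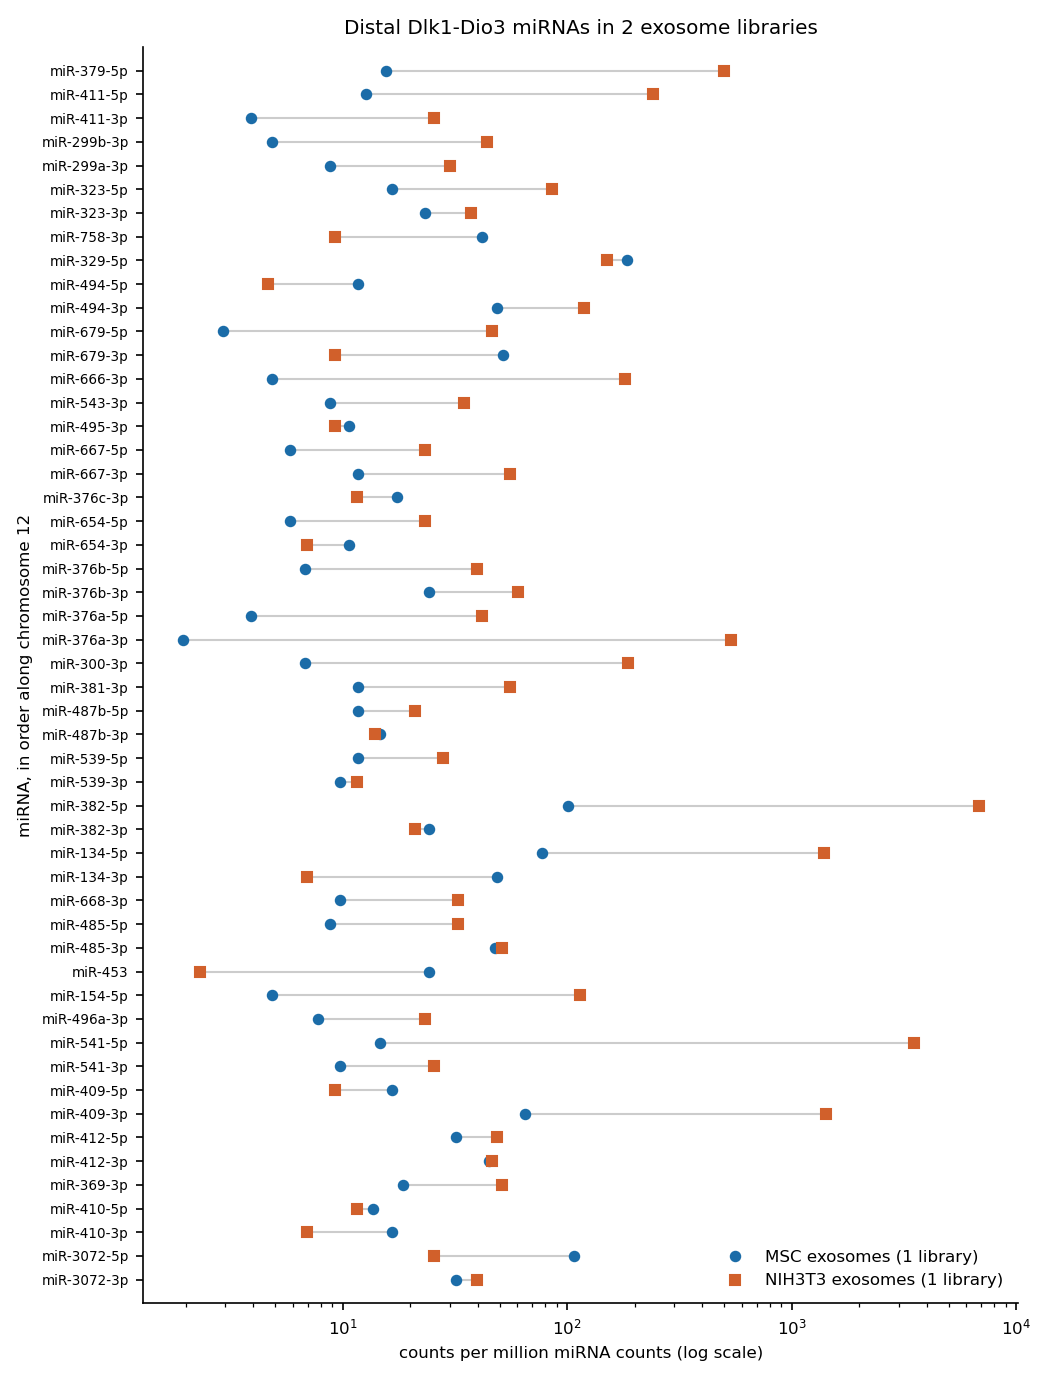
Level of each of the 52 cluster members in MSC exosomes (circles) and NIH3T3 exosomes (squares), in CPM of miRNA counts on a log axis, 1 library each, in order along chromosome 12. The 4 members that lead the NIH3T3 library stand between 1387 and 6798 CPM there, and no member exceeds 185 CPM in the MSC library.

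A few mature miRNAs made up most of the cluster in NIH3T3 exosomes. miR-382-5p, from an intron of Mirg at 109733781 to 109733802, had 104 counts from MSC and 2930 from NIH3T3 exosomes. It ranked 23rd of all miRNA entries in the NIH3T3 library and 261st in the MSC library. The log2 ratio of -6.29 (-6.60 to -6.02) corresponds to a level 78.3-fold higher in NIH3T3 exosomes. miR-541-5p, which lies in another Mirg intron (109742422 to 109742446) and is known in rat neuronal-like cells as a repressor of synapsin I, had 15 and 1514 counts, or 14.6 and 3513 CPM. Its log2 ratio of -8.04 (-8.99 to -7.42), 264-fold, was the lowest among the 52 members. These miRNAs together held 63.2% of the cluster's NIH3T3 counts (62.1 to 64.3).

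The next most abundant in NIH3T3 exosomes were miR-409-3p and miR-134-5p. miR-409-3p, known in human liver cells as a repressor of fibrinogen, had 67 counts from MSC and 615 from NIH3T3 exosomes, a log2 ratio of -4.67 (-5.07 to -4.32). miR-134-5p, which in rat hippocampal neurons limits dendritic spine size through Limk1, had 79 and 598 counts and a log2 ratio of -4.39 (-4.77 to -4.07). It lies at 109734145 to 109734166, within an exon of Mirg. With miR-382-5p and miR-541-5p these made up 80.5% of the cluster's counts in NIH3T3 exosomes (79.5 to 81.4) and 19.4% in MSC exosomes (17.4 to 21.6). Without these 4 members the sums were 1103 and 1373 counts and the log2 ratio was -1.81 (-1.92 to -1.69), so the size of the difference over the whole cluster rested largely on them.

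The other 6 of the 10 lowest ratios came from members between 49 and 230 counts in NIH3T3 exosomes. miR-376a-3p, whose seed can be changed by RNA editing in mouse and human tissues, had 2 counts from MSC and 230 from NIH3T3 exosomes, the latter 534 CPM. The log2 ratio was -7.70 (-11.39 to -6.47), and its wide interval reflects the 2 counts. The sources used here do not say whether edited copies were counted under this name. miR-379-5p, the first hairpin of the cluster and a glucocorticoid-responsive regulator of lipid metabolism in mouse liver, had 16 and 215 counts (-5.14, -6.07 to -4.51). Its neighbour miR-411-5p had 13 and 104 counts (-4.38, -5.45 to -3.65). miR-300-3p (7 and 80 counts, -4.80), miR-666-3p (5 and 78, -5.17) and miR-154-5p (5 and 49, -4.50) had similar levels to one another, and each had an interval wholly below -3. The intervals of all 10 members thus lay well below a 2-fold difference, while the spread between cultures is not known. However, miR-376a-3p, miR-300-3p, miR-666-3p and miR-154-5p were listed through the NIH3T3 library alone. For them a low MSC count was built in, and their intervals do not allow for this selection.

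**Figure D2:**
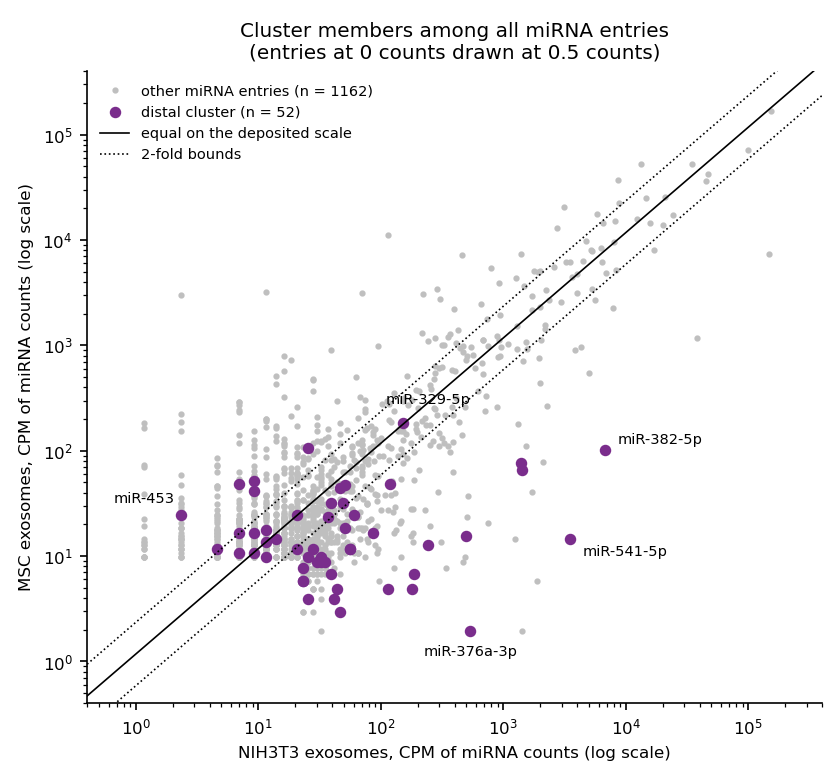
Level of every miRNA entry in NIH3T3 exosomes (horizontal) and MSC exosomes (vertical), in CPM of miRNA counts on log axes, with the 52 cluster members as large dots and the other 1162 entries as small dots. Lines mark equality and 2-fold differences on the deposited scale, and the members with the highest NIH3T3 levels lie far below the lower 2-fold line while others lie among the low-count entries.

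The remaining 21 members called lower were sparse, though 8 of them had an interval wholly below a 2-fold difference. Among these 8, however, miR-411-3p, miR-299b-3p, miR-679-5p, miR-376b-5p and miR-376a-5p were listed through the NIH3T3 library alone. A low MSC count was thus built in for them, which their intervals do not allow for. The members without such an interval included miRNAs with described targets. miR-369-3p (19 counts from MSC and 22 from NIH3T3 exosomes), miR-496a-3p (8 and 10) and miR-543-3p (9 and 15), which in mouse neural progenitors restrain N-cadherin, had log2 ratios of -1.64, -1.68 and -2.10. Their intervals lay below 0 and reached above -1, so that they excluded equality but not a difference of less than 2-fold. The same held for miR-494-3p, with 50 and 51 counts (-1.50, -2.11 to -0.93). However, miR-496a-3p and miR-543-3p were listed through the NIH3T3 library alone. The intervals do not allow for this selection, so even the direction of these members is uncertain. All 31 members called lower had a median of 10 counts from MSC and 22 from NIH3T3 exosomes. The call was least certain for miR-487b-5p (12 and 9 counts), whose interval of -2.45 to 0.35 included equality, the 1 such case among the 31.

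The 5 members higher in MSC exosomes all had low counts, and none had an interval wholly beyond 2-fold. miR-3072-5p, in the last hairpin of the cluster and in a Mirg intron, had 110 counts from MSC and 11 from NIH3T3 exosomes (log2 ratio 1.80, 0.94 to 2.88). miR-679-3p had 53 and 4 counts (2.13, 0.80 to 4.17), and miR-134-3p had 50 and 3 (2.42, 0.94 to 4.89). miR-758-3p, known to repress the cholesterol transporter Abca1, had 43 and 4 counts (1.84, 0.48 to 3.88). miR-453, the member with no arm in its name, had 25 and 1 counts (2.73, 0.54 to 8.51). All 5 intervals lay above 0. However, miR-679-3p, miR-134-3p, miR-758-3p and miR-453 were listed through the MSC library alone, so a low NIH3T3 count was built in. Their intervals do not allow for this selection, so even the direction of these members is uncertain. Only miR-3072-5p met the listing minimum in both libraries. The highest level of any of these was 107 CPM, for miR-3072-5p.

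Among the 16 members within 2-fold, miR-329-5p stood out by its level. It had 190 counts in MSC exosomes, the most of any member there, and 65 in NIH3T3 exosomes, or 185 and 151 CPM. The log2 ratio was 0.06 (-0.36 to 0.49). The other 15 had at most 49 counts from MSC and 22 from NIH3T3 exosomes. They included miR-485-3p (49 and 22 counts, -0.33), miR-412-3p (46 and 20, -0.28) and miR-382-3p (25 and 9, -0.02). All 16 intervals included equality, some of them very wide, such as that of miR-494-5p (12 and 2 counts, -1.07 to 4.30).

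As a description of these sparse counts, the Spearman rho between MSC and NIH3T3 levels was 0.04 over the 52 members and 0.47 over all 1214 miRNA entries, where miRNAs share libraries and the members share a transcribed region. These values do not cover a like range, since MSC counts reached 190 among the members and 172285 over all entries. Listing through 1 library alone, which held for 15 members in each direction, also lowers such a rho. The log2 ratio went down with the NIH3T3 level (rho -0.80), which is in part built in because that level is the ratio's denominator. Of the 12 members at 100 CPM or more in NIH3T3 exosomes, 11 were lower in MSC exosomes, with miR-329-5p as the exception. Over all 228 miRNA entries at that NIH3T3 level, 36.4% were lower and 15.8% were higher, and choosing entries by a high NIH3T3 level itself favours low ratios. Of the 40 below that level, 20 were lower, 5 were higher and 15 were neither. Over all 1214 miRNA entries, at any level, 25.5% were lower and 23.8% were higher. The shares over all entries below that level were not computed.

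Both arms were listed for 18 of the 34 hairpins, and in some of them their use differed between the libraries. A hairpin yields a duplex, of which usually 1 arm is retained and the other degraded. Arm use was compared for the 11 hairpins with at least 20 counts in each library, and for 6 of these the Wilson intervals of the 3p share did not overlap. Over all 198 hairpins of the table that met the same minimum, 36.4% had intervals that did not overlap, so differing arm use was common between these libraries. In NIH3T3 exosomes the miR-382 hairpin had 2930 counts on its 5p arm and 9 on its 3p arm, a 3p share of 0.306% (0.161 to 0.581). In MSC exosomes the same arms had 104 and 25 counts, a 3p share of 19.4% (13.5 to 27.0). The log2 ratio was -6.29 for the 5p arm, whereas the 3p arm was at -0.02 (-1.16 to 1.27).

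The miR-134 and miR-541 hairpins showed the same pattern. For miR-134 the 5p and 3p arms had 598 and 3 counts in NIH3T3 exosomes and 79 and 50 in MSC exosomes. The 3p share was thus 0.499% (0.170 to 1.46) and 38.8% (30.8 to 47.4), and the arms were called in opposite directions. For miR-541 the arms had 1514 and 11 counts in NIH3T3 exosomes and 15 and 10 in MSC exosomes, a 3p share of 0.721% (0.403 to 1.29) against 40.0% (23.4 to 59.3). At miR-409 the 3p arm dominated, with 99.4% of 619 counts in NIH3T3 exosomes (98.4 to 99.7) and 79.8% of 84 counts in MSC exosomes (70.0 to 87.0). In all 4 hairpins the minor arm had 3 to 11 counts in NIH3T3 exosomes and 10 to 50 in MSC exosomes. Of these arms, miR-382-3p, miR-134-3p and miR-409-5p were listed through the MSC library alone. A hairpin whose minor arm was under 10 counts in both libraries was not compared. The larger minor-arm share in MSC exosomes is thus in part built in by the listing.

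In 2 further hairpins with separate intervals the more abundant arm itself differed. miR-679 had 3 counts on the 5p arm and 53 on the 3p arm in MSC exosomes, against 20 and 4 in NIH3T3 exosomes. The 3p share was 94.6% (85.4 to 98.2) and 16.7% (6.68 to 35.9), and the arms were again called in opposite directions. Here the 5p arm was listed through the NIH3T3 library alone and the 3p arm through the MSC library alone. Opposite calls are thus in part built in by the listing, which the intervals do not allow for. miR-3072 went the other way, with 110 counts on the 5p arm and 33 on the 3p arm in MSC exosomes and 11 and 17 in NIH3T3 exosomes, a 3p share of 23.1% (16.9 to 30.6) against 60.7% (42.4 to 76.4). For the other 5 hairpins, miR-323, miR-494, miR-376b, miR-485 and miR-412, the intervals overlapped. There miR-494 was mostly 3p in both libraries (80.6% and 96.2%), as was miR-485 (84.5% and 61.1%). miR-376b was at 78.1% and 60.5%, miR-323 at 58.5% and 30.2%, and miR-412 at 58.2% and 48.8%, so that miR-323 and miR-412 also lay on either side of 50%, though not beyond counting error.

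**Figure D3:**
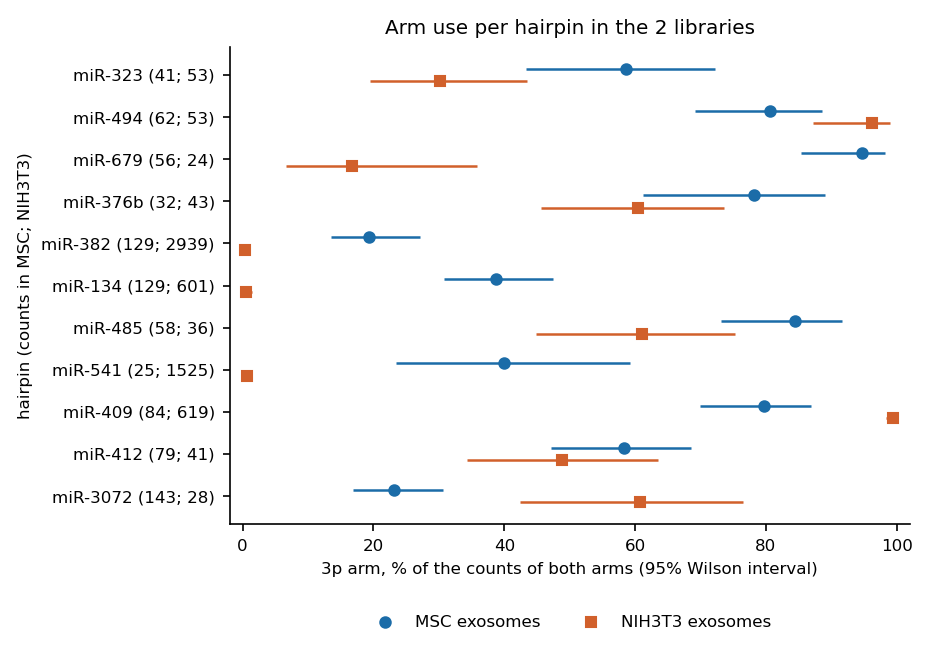
Share of the 3p arm in the counts of both arms, in percent with 95% Wilson intervals, for the 11 hairpins with at least 20 counts in each library (circles MSC exosomes, squares NIH3T3 exosomes, counts of both arms beside each name). For miR-382, miR-134 and miR-541 the NIH3T3 share is below 1% while the MSC share lies between 19.4% and 40.0%.

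The 48 members with a sequence had 46 different seeds, so the cluster is not a family with a common seed. Identical seeds were held by 2 pairs. In the first, miR-299b-3p is annotated on the strand opposite to miR-299a, and its sequence lies wholly inside that of miR-299a-3p.
miR-299a-3p: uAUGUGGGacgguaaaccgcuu
miR-299b-3p: uAUGUGGGacgguaaacc
The split of reads between these entries is therefore uncertain. They had 9 and 5 counts in MSC exosomes and 13 and 19 in NIH3T3 exosomes, with log2 ratios of -1.89 and -3.15.

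The second pair with a shared seed joins 5p arms of distant hairpins.
miR-494-5p: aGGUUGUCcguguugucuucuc
miR-410-5p: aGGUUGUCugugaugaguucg
They had 12 and 14 counts in MSC exosomes and 2 and 5 in NIH3T3 exosomes, and both intervals included equality. Their seeds contain GGUU, a run picked out after the sequences had been seen. It was present in bases 1 to 8 of 7 of the 48 members with a sequence (14.6%) and of 26 of the 1052 miRNA entries with a sequence (2.47%). The others were miR-329-5p, miR-487b-5p, miR-453, miR-154-5p and miR-409-5p. By call, 4 of the 7 were within 2-fold, 2 were lower and 1 was higher in MSC exosomes. Seeds of 5 members recur in listed miRNAs elsewhere in the genome. Among them, miR-410-3p shares its seed with miR-344d-3p of chromosome 7, which had 266 counts from MSC and 9 from NIH3T3 exosomes (3.34, 2.45 to 4.54), while miR-410-3p had 17 and 3 (0.92, -0.78 to 3.43).

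Members with closely related seeds did not always have like values. The seeds of miR-376a-3p and miR-376b-3p differ at 1 base, as do those of miR-300-3p and miR-381-3p and those of miR-379-5p and miR-411-5p.
miR-376b-3p: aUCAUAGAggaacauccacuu
miR-381-3p: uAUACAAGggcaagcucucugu
miR-376a-3p had the 2 and 230 counts given above, whereas miR-376b-3p, at 109723508 to 109723528 and next to it on the chromosome, had 25 and 26 (-1.51, -2.40 to -0.70). The intervals of their ratios did not overlap. miR-381-3p had 12 and 24 counts (-2.38, -3.62 to -1.43) beside the 7 and 80 of miR-300-3p, and the intervals of miR-379-5p and miR-411-5p overlapped.

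Position within the cluster gave no simple order of ratios. The Spearman rho between position and log2 ratio was 0.21 over the 52 members. In the first 10 kb from miR-379-5p, 10 of 16 members were lower in MSC exosomes and 2 were higher, and in the next 10 kb 11 of 15 were lower and 0 were higher. From 20 to 30 kb 5 of 9 were lower and 2 higher, and beyond 30 kb 5 of 12 were lower and 1 higher. The annotated Mirg gene (109729764 to 109749460) contained 21 of the members, 14 in introns and 7 in exons, and the other 31 lay upstream of it between genes. Inside Mirg the sums were 745 counts from MSC and 5893 from NIH3T3 exosomes (log2 ratio -4.47, -4.59 to -4.36), and 10 of 21 members were lower. Outside it they were 623 and 1137 counts (-2.36, -2.50 to -2.22), and 21 of 31 were lower. The larger summed difference inside Mirg thus went with a smaller share of members called lower, since the 4 leading members all lie there.

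The nearest listed miRNA before the window was miR-370-3p, 81.7 kb from its border, and the nearest after it was miR-1247-3p, 518 kb away, so that the choice of borders split no hairpin. The 25 proximal miRNAs of the same domain, which lie around Meg3 and Rtl1 or inside Rian, were also mostly lower. Of these, 18 were lower, 1 was higher and 6 were within 2-fold, with a median log2 ratio of -2.72, against -1.59 for the distal members. Over all 1214 miRNA entries, 25.5% were lower and 23.8% were higher by the same rule. The proximal sums of 1913 counts from MSC and 4755 from NIH3T3 exosomes gave a log2 ratio of -2.80 (-2.88 to -2.73). This was a smaller difference than the -3.85 of the distal sum, but the order rested on few entries. Of the 1913 MSC counts, 819 came from miR-3070-5p, and the distal log2 ratio was -1.81 without its 4 leading members. The 3 most abundant proximal entries in NIH3T3 exosomes were miR-127-3p, antisense to Rtl1 (562 and 2169 counts, -3.44), miR-434-5p (6 and 817, -8.33) and miR-540-3p (2 and 614, -9.11). The highest proximal ratio was that of miR-3070-5p, which was higher in MSC exosomes (819 and 7 counts, 5.30), above all ratios within the distal cluster. However, miR-434-5p and miR-540-3p were listed through the NIH3T3 library alone and miR-3070-5p through the MSC library alone. A low count in the other library was thus built in for these entries.

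**Figure D4:**
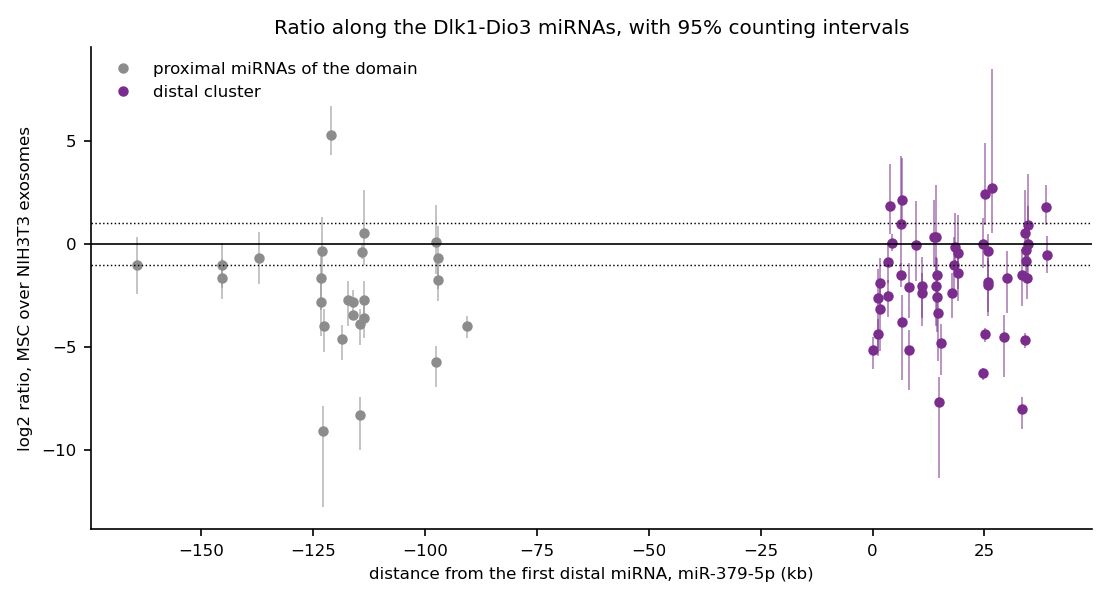
Log2 ratio of MSC over NIH3T3 exosomes for the 25 proximal and 52 distal miRNAs of the domain against distance from miR-379-5p in kb, with 95% counting intervals as vertical lines and dotted lines at 2-fold. Points of both stretches lie mostly below 0, and the distal ratios run from -8.04 to 2.73 with a Spearman rho of 0.21 against position.

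Median G+C content was 47.6% for the 30 members called lower that had a sequence, 47.8% for 13 members within 2-fold and 54.5% for the 5 called higher, where all miRNA entries with a sequence had 54.2%. miR-3072-5p had the highest value among the members, at 77.3%. The Spearman rho between G+C content and log2 ratio was 0.00 over 48 members. Median mature length was 22 bases in all 3 groups.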

How the data were processed

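Small RNA was measured in exosomes from the supernatant of cultured cells, with 1 library per group. Per the labels' protocols, exosomal RNA was purified by an exoRNeasy kit and sequenced after QIAseq miRNA library construction, while a miRNA microarray is mentioned as well. Per the submitters' processing notes, mm10 was used. The aligner, the counter, the annotation release and any use of molecular identifiers were not given in the sources used here. Per the file headers, the authors deposited raw counts per entry and a normalized pair of columns. The deposited normalized values were on a log2 scale. Each was the raw count multiplied by a constant of its library, 0.655 for MSC and 1.84 for NIH3T3 exosomes, and then log2-transformed, with 0 where that product was under 1. Every entry held at least 10 counts in 1 of the libraries.

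From these files, CPM was computed on the miRNA total of each library. The log2 ratio used the raw counts times the deposited factors, plus a constant of 0.734, which is worth 1 CPM of the libraries' mean miRNA total. A difference of 2-fold or more was called higher or lower. Intervals are exact conditional (Clopper-Pearson) 95% intervals of the 2 counts, scaled by the factors and without the added constant, and shares have 95% Wilson intervals. They cover counting error only, and reads that are PCR copies would make them too narrow. With 1 library per group no test was made. The interval and the call were tested on simulated data. Sequences were taken from RefSeq (GRCm38.p6) by name, genes from GENCODE M21 on the same build. Work was done in Python 3.11.15 with scipy 1.17.1 and pandas 2.3.3.

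Members, lists and alternatives were chosen with earlier results of these data known. Named members are the 10 most abundant in each library, all those higher in MSC exosomes, the 10 with the lowest ratios, both arms of each hairpin with at least 20 counts in both libraries, members that share a seed, and the first and last of the window. Other members are named where a sentence counts or pairs them, and these were chosen after their values were seen. Alternatives were 4 other scalings, 2 other added constants, floors of 10 and 100 CPM and of 20 summed counts, leaving out entries with several positions, other denominators, and the cluster without its leading members or limited to the Mirg gene.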

Additional observations from a re-analysis of the deposited data

How the results depend on the processing

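The cluster's summed and median ratios kept their direction under each alternative for which they were recomputed. The floor of 10 CPM and leaving out entries with several positions removed no member, so these alternatives could not change the values. Added constants and floors were tried on the median and the calls alone, and leaving out the top member of each library on the sum and the shares alone. In all, 48 of 52 members kept their call under the 4 other scalings and 2 other added constants. The exceptions were miR-494-5p (higher, up to 1.17), miR-410-3p (higher at 1.13 to 1.14), miR-487b-5p (within 2-fold at -0.97 to -0.79) and miR-323-3p (lower at -1.04), each in some of these settings. Scaled by the miRNA total, by all entries, or by the miRNA total less the 10 leading miRNAs of either library, the median was -1.36, -1.38 and -1.74 and the summed log2 ratio -3.62, -3.63 and -4.02. With a constant of 5 CPM the median was -1.39. At a floor of 100 CPM, 11 members were lower, 1 was higher and the median was -4.67, but 10 of the 13 that passed did so through NIH3T3 exosomes alone, which favours low ratios. Of all miRNA entries at this floor, 26.1% were lower, 34% were higher and the median was 0.28. Limited to Mirg, an alternative chosen after seeing the data, 10 were lower, 3 were higher, the median was -0.82 and the summed ratio -4.47. The summed ratio was -3.40 without miR-329-5p and miR-382-5p and, chosen after seeing the data, -1.81 without the 4 leading members. The cluster's share was then 0.104% in MSC and 0.936% in NIH3T3 exosomes without miR-329-5p and miR-382-5p, 0.0547% and 0.678% of all entries, and 0.312% and 5.06% of miRNA counts less those leading miRNAs. No paired analysis was possible because each group held 1 library. Leaving out a library was likewise not possible. Depth limits the sparse members most, since a count of 0 would allow 2.92 CPM in MSC and 6.96 CPM in NIH3T3 exosomes.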
